A study of Mus musculus with 6 samples.

Results

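This account describes 9 genes, 8 nuclear hormone receptors and 1 target gene, among the 48733 named genes of 6 mouse RNA-seq libraries. The genes are *Vdr*, *Esr1*, *Esr2*, *Nr3c1*, *Thra*, *Thrb*, *Rara*, *Rarg* and *Cyp24a1*, matched in the tables by their names. All 9 have 1 feature in every library. The mice were of CC016/GeniUnc, an inbred strain of the Collaborative Cross, and their age and sex are not given in the sources used here. The 3 libraries labelled bone come from cortical bone of the femur with the marrow removed. The 3 labelled osteoblasts come from BMSCs, the stromal cells of bone marrow, which adhere to the dish and can form bone. These cells were cultured for 8 days with 10 nM dexamethasone, 50 µg/ml ascorbic acid and 10 mM beta-glycerophosphate. Dexamethasone is itself a ligand of NR3C1, the protein of 1 of the 9 genes, and no treatment of the bone is given. By the methods of the study femora of 3 mice gave the bone and the marrow, and the labels do not tie a bone library to a culture of the same mouse. The p-values measure only the spread between these libraries.

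Nuclear receptors are transcription factors that bind small lipid-soluble hormones and switch target genes through DNA sites near them. VDR binds active vitamin D, ESR1 and ESR2 bind estrogen, NR3C1 binds glucocorticoids, THRA and THRB bind thyroid hormone, and RARA and RARG bind retinoic acid. VDR, the thyroid receptors and the retinoic acid receptors pair with a retinoid X receptor on DNA, while the estrogen and glucocorticoid receptors act mainly as homodimers. In bone these hormones act on the formation, mineralization and resorption of the matrix, and *Cyp24a1*, which encodes the enzyme that inactivates vitamin D, is a classical target of VDR.

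The labels and the marker genes of other cell types do not fall together. *Hbb-bt*, a beta-globin gene of red cells, was above 1000 FPKM (fragments per kilobase of transcript, relative to all aligned fragments) in bone replicate 3, osteoblasts replicate 2 and osteoblasts replicate 3, at 34838, 34268 and 48650 FPKM. It was at 7.05, 3.58 and 3.43 FPKM in bone replicate 1, bone replicate 2 and osteoblasts replicate 1. All 7 neutrophil markers were above 0 in each of the first 3 libraries, with a sum of 14246 to 17226 FPKM against 0.430 to 5.51 in the other 3. The defining B cell markers *Cd79a* and *Cd79b* were above 0 in the libraries with *Hbb-bt* above 1000 and listed at 0 in the others, and *Acta1* of skeletal muscle was at 108.8 to 557.9 against 0.0324 to 1.04 FPKM. The osteoblast gene *Col1a1* was at 1499 to 3332 FPKM in all 6 libraries, while *Ibsp*, another bone matrix gene, was at 43.1 to 91.3 FPKM where *Hbb-bt* was above 1000 and at 986.0 to 1278 where it was not. The osteocalcin gene *Bglap2* and the osteocyte gene *Sost* went the other way, at 1641 to 1959 and 15.8 to 22.7 FPKM where *Hbb-bt* was above 1000 and at 264.2 to 512.9 and 0.0661 to 0.198 where it was not. The osteocyte genes did not move together. *Dmp1* was at 22.5 to 24.2 FPKM where *Hbb-bt* was above 1000 and at 50.0 to 126.6 where it was not, and *Phex* overlapped, at 4.61 to 6.71 and 5.14 to 8.19. *Csf1r* of macrophages was at 44.0 to 51.7 FPKM where *Hbb-bt* was above 1000 and at 178.5 to 362.7 where it was not, and *Acta2* of smooth muscle and stroma was at 6.79 to 11.8 and at 136.4 to 350.5. The stromal marker *Thy1* did not follow *Acta2*, at 3.46 to 4.62 FPKM where *Hbb-bt* was above 1000 and at 1.52 to 4.04 where it was not. The files do not settle whether every deposited label is right, and each value of osteoblasts minus bone below rests on the labels as deposited. No library was regrouped. The part of these cell types in the values below was not tested, and in bulk RNA fewer cells of a type and less RNA per cell cannot be told apart.

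Depth was 13566667 to 22586667 aligned read pairs, and 3 pairs on a 1 kb transcript give 0.133 to 0.221 FPKM in these libraries. Features without a gene name took 71.5% of the FPKM in bone replicate 2 and 65.0% in osteoblasts replicate 1. They took 27.4 to 30.7% in each of the remaining 4. The FPKM of named genes summed to 355965 and 390066 in these 2 libraries and to 595021 to 875547 in the remaining 4. Whether the unnamed features account for this was not tested. Because the sums differ, levels are also given after scaling every library to the same 75th percentile of FPKM over the genes tested.

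The receptors fell into 3 levels. *Rarg*, *Thra*, *Rara*, *Nr3c1* and *Vdr* had mean FPKM over the 6 libraries of 16.0 ± 5.60, 15.7 ± 8.02, 12.8 ± 5.03, 9.74 ± 3.61 and 7.55 ± 2.02 (SD, n = 6). *Esr1* and *Thrb* were at 2.09 ± 1.16 and 1.01 ± 0.37 FPKM (SD, n = 6). *Esr2* was under the depth floor in every library and *Cyp24a1* was listed at 0 in all 6. Among genes with at least 1 FPKM in the same library, *Rarg* stood above a median of 75.7% of them, *Vdr* above 55.8% and *Esr1* above 18.3%. Neighbours at the top of this order did not differ beyond their spread. *Rarg* was above *Thra* in 3 of 6 libraries, *Thra* above *Rara* in 5, *Rara* above *Nr3c1* in 4 and *Nr3c1* above *Vdr* in 5, with overlapping ranges. The ranges of *Vdr* and *Esr1* did not overlap, nor did those of *Thrb* and *Esr2*, while *Esr1* was above *Thrb* in 5 of 6 libraries.

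**Figure D1:**
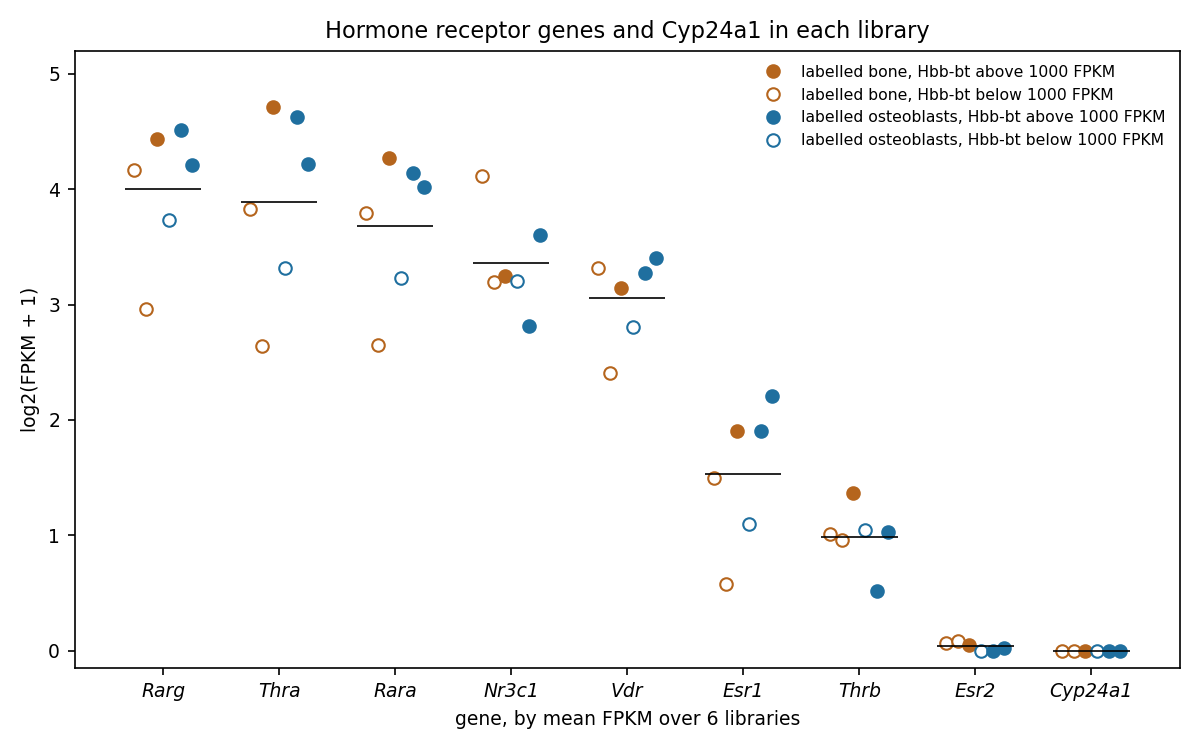
Level of each gene in each library as log2(FPKM + 1), with 1 point per library in the order bone replicates 1 to 3 and osteoblasts replicates 1 to 3, and a line at the mean of the 6. Filled points, the libraries with *Hbb-bt* above 1000 FPKM, are the 3 highest for *Esr1*, *Thra*, *Rara* and *Rarg*, and *Cyp24a1* lies at 0 throughout.

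The order depends on which deposited measure is read. Besides FPKM, the tables give the mean read coverage of each feature, which can be put on the FPKM scale by the usual ratio of the 2 in each library. For *Esr2* the coverage comes to 99.8% of the FPKM in the 4 libraries where it is above 0. For the others the coverage comes to 52.1 to 61.8% of the FPKM for *Vdr*, 56.5 to 76.6% for *Nr3c1*, 23.9 to 28.7% for *Rarg*, 16.0 to 18.3% for *Thra*, 10.8 to 11.9% for *Rara*, 7.38 to 19.1% for *Esr1* and 1.05 to 2.33% for *Thrb*. By coverage *Nr3c1* led at 6.59 ± 2.59 and *Vdr* followed at 4.38 ± 1.17, ahead of *Rarg* at 4.14 ± 1.29, *Thra* at 2.61 ± 1.27 and *Rara* at 1.43 ± 0.53 (FPKM scale, SD, n = 6). *Thrb*, at 0.0161 on this scale, then lay below *Esr2*, at 0.0262. The cause of the gap between the measures was not tested.

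**Figure D2:**
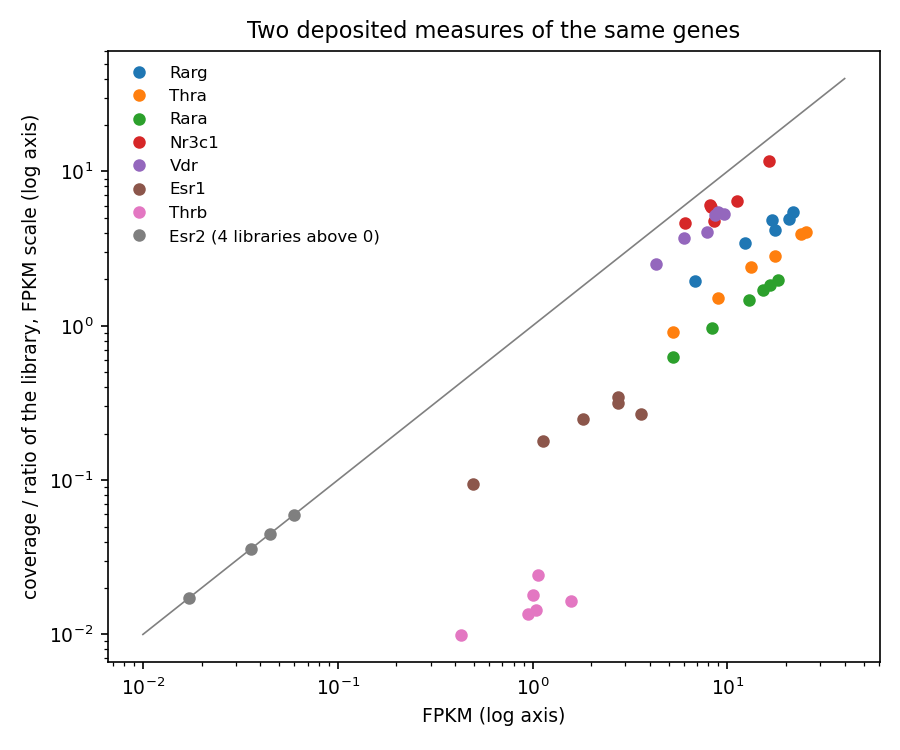
Coverage divided by the usual coverage-to-FPKM ratio of each library (vertical, FPKM scale) against deposited FPKM (horizontal), both on log axes, with 1 point per gene and library and a line of equality. *Esr2* lies on the line, *Nr3c1* and *Vdr* lie just under it, and *Thrb* lies farthest below, at 1.05 to 2.33% of its FPKM.

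The comparison the labels give is osteoblasts against bone. Of the 9 genes, 7 had a mean of at least 1 FPKM and were tested with limma on log2(FPKM + 1) among 12112 genes. None of the 7 passed an adjusted p of 0.05 (adjusted p = 0.999 for each), and neither did any other gene, a share of 0%. Without adjustment 17 of the 12112 genes had a p under 0.05, and limma without a trend also called 0. These counts rest on single libraries: 262 genes were higher and 38 lower in osteoblasts without osteoblasts replicate 1, and 66 and 11 without bone replicate 3, with none of the 7 receptors among them. The values under the 2 labels overlapped for all 7, and over all genes tested they were separate for 0.916%. An exact two-sided permutation test of 3 against 3 libraries cannot go below p = 0.1.

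The intervals of the differences were wide. On the log2(FPKM + 1) scale, osteoblasts minus bone, *Esr1* differed by 0.41 (95% interval -0.75 to 1.57), *Thra* by 0.33 (-1.08 to 1.74), *Rarg* by 0.29 (-0.90 to 1.49), *Rara* by 0.23 (-1.004 to 1.46) and *Vdr* by 0.21 (-0.79 to 1.20). *Thrb* differed by -0.25 (-1.20 to 0.71) and *Nr3c1* by -0.31 (-1.36 to 0.73). Bone replicate 2, the lowest library for 5 of the 7, decided the sign of several: without it the differences were -0.069 for *Vdr*, -0.21 for *Thra*, -0.23 for *Rara* and -0.15 for *Rarg*. With all libraries the median over all genes tested was 0.12, and that over the 7 receptors was 0.23. A difference of 1 log2 unit upward lies within the intervals of *Esr1*, *Thra*, *Rarg*, *Rara* and *Vdr*, and 1 downward within those of *Thra*, *Rara*, *Thrb* and *Nr3c1*.

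**Figure D3:**
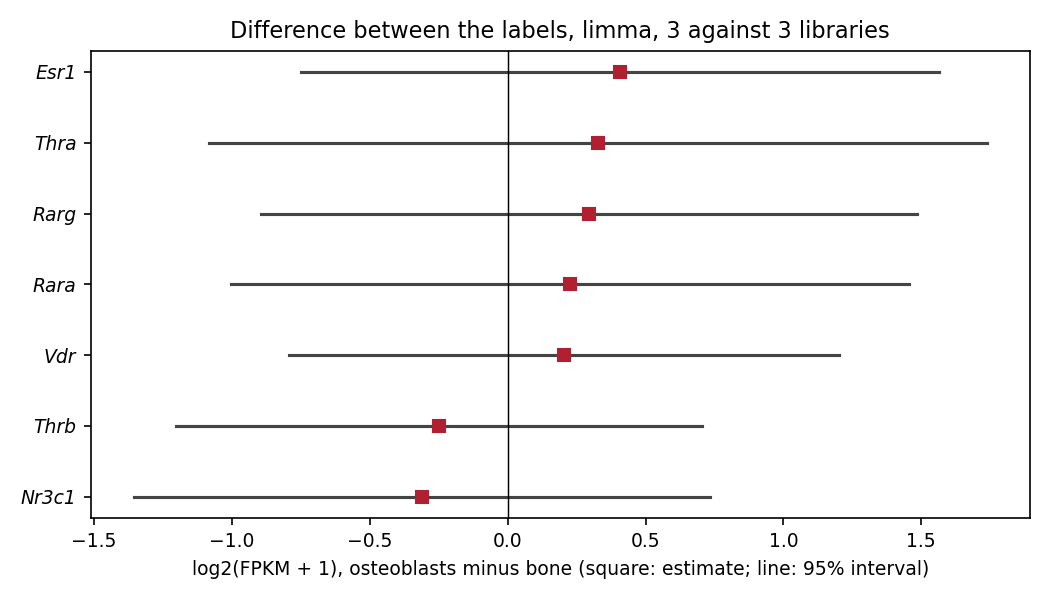
Difference between the labels for the 7 receptors tested, on the log2(FPKM + 1) scale (horizontal), with limma's estimate as a square and its 95% interval as a line, from 3 against 3 libraries. Every interval crosses 0, from *Nr3c1* at -0.31 to *Esr1* at 0.41.

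A second arrangement of the libraries, by *Hbb-bt*, was described and not tested. *Esr1*, *Thra*, *Rara* and *Rarg*, 4 of the 7, had their 3 highest FPKM in the libraries with *Hbb-bt* above 1000. Over all genes tested 38.4% did. None of the 7 had its 3 lowest FPKM there, against 16.9% of all genes. After scaling to the 75th percentile *Esr1*, *Thra* and *Rara* kept that arrangement, and *Nr3c1* had its 3 lowest values in those libraries. On that scale 37.1% of all genes tested had their 3 highest values there and 32.1% their 3 lowest. Scaled to the sum of named genes, only *Esr1* of the 7 kept its 3 highest values there, while *Vdr* and *Nr3c1* had their 3 lowest, against 21.4% and 48.6% of all genes. Of the 7, *Esr1* alone had its 3 highest there in the deposited FPKM and under both scalings. Scaled to the sum of named genes the margin was narrow, with a lowest value of 2.04 there against a highest of 1.99 elsewhere. In TPM *Esr1* and *Thra* had this arrangement, and *Rara* and *Rarg* did not. The share of all genes that keep it on every scale was not counted.

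*Vdr*, the vitamin D receptor (Chr. 15, minus strand, 97854425 to 97910630 of GRCm38, protein-coding), was at 8.96, 4.30 and 7.82 FPKM in bone replicates 1 to 3 and at 5.98, 8.67 and 9.58 in osteoblasts replicates 1 to 3. The lowest 2 values are those of the libraries with most FPKM on unnamed features. The means were 7.03 ± 2.43 in bone and 8.08 ± 1.87 in osteoblasts (SD, n = 3, exact permutation p = 0.6). After scaling to the 75th percentile *Vdr* varied little, with a highest value 1.21 times the lowest, and 0.974% of the genes tested varied less. The scaled means were 7.15 ± 0.20 in bone and 7.86 ± 0.48 in osteoblasts, separate by label, with the smallest exact permutation p that the design allows (p = 0.1, n = 3). On the same scale 375 of the 12112 genes, 3.1%, were separate by label. This depends on the scaling: *Vdr* spanned 2.23-fold in FPKM, 3.06-fold in TPM and 1.71-fold when scaled to the sum of named genes, and its labels overlapped on each of these scales. The genes most like *Vdr* over the 6 libraries, by the root mean square difference of centred log2(FPKM + 1), were *Sae1* (0.040), *Cyth3* (0.043) and *Chst11* (0.043), out of 7106 genes.

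**Figure D4:**
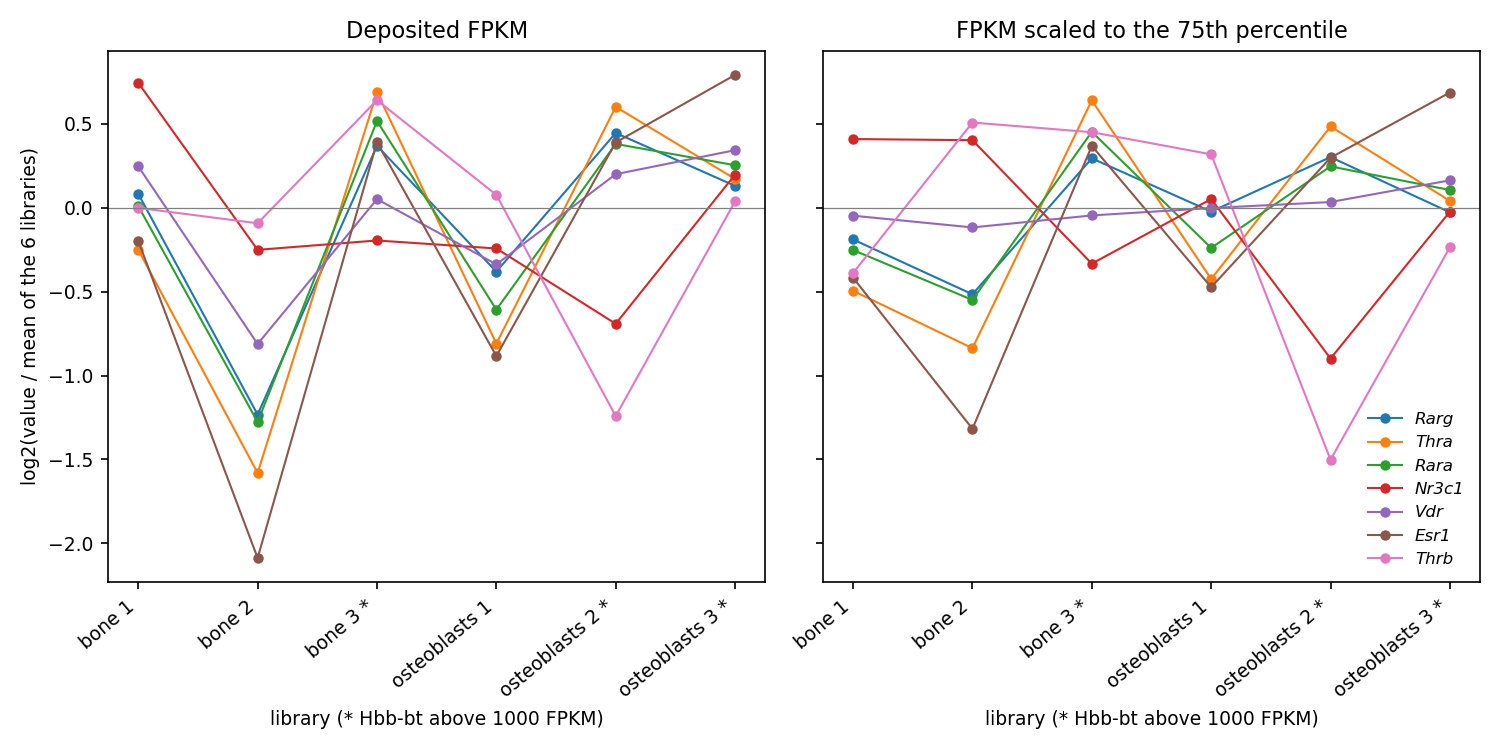
Each receptor's value in each library relative to its mean over the 6 libraries, as log2 (vertical), for deposited FPKM on the left and for FPKM scaled to the 75th percentile on the right, with libraries along the horizontal axis and * for *Hbb-bt* above 1000 FPKM. Bone replicate 2 is the lowest library for most receptors on the left, and on the right *Vdr* is nearly flat, with a highest value 1.21 times the lowest, while *Esr1* spans 4.01-fold and *Thrb* 4.03-fold.

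*Cyp24a1* (Chr. 2, minus strand, 170482708 to 170497145, protein-coding) was listed at 0 FPKM and 0 coverage in all 6 libraries, including those where *Vdr* was above 8 FPKM. Its 5′ end overlaps that of *Pfdn4*, a prefoldin subunit gene on the other strand at 3.50 to 9.49 FPKM, by 718 bp, and the library kit does not mark strand. Of 15 genes of vitamin D supply and action, 12 had a feature and 2 had a mean of at least 1 FPKM, and limma called neither. *Cyp27b1*, the enzyme that activates vitamin D, was at 0 in 4 libraries and at 0.0574 in bone replicate 3 and 0.157 in osteoblasts replicate 3, both under the depth floor. The calcium channel genes *Trpv5* and *Trpv6* did not exceed 0.0279 FPKM, and *Gc*, the plasma vitamin D carrier, was at 0 in all 6. *Tnfsf11* (RANKL, the osteoclast factor that vitamin D is known to induce) was at 1.04, 0.215 and 0.372 FPKM in bone and 0.529, 0.790 and 0.904 in osteoblasts. *Bglap2*, an osteocalcin gene, was the most abundant of the list, at 264.2, 382.8 and 1959 FPKM in bone and 512.9, 1889 and 1641 in osteoblasts. Its 3 highest values were those of the libraries with *Hbb-bt* above 1000, an arrangement that *Vdr* did not have.

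*Rara* and *Rarg*, the alpha and gamma receptors of retinoic acid, followed each other most closely of the 21 receptor pairs. *Rara* (Chr. 11, plus strand, 98927818 to 98974942, protein-coding) was at 12.8, 5.27 and 18.3 FPKM in bone and 8.38, 16.6 and 15.2 in osteoblasts. *Rarg* (Chr. 15, minus strand, 102234938 to 102257517, protein-coding) was at 16.9, 6.80 and 20.7 FPKM in bone and 12.3, 21.8 and 17.5 in osteoblasts. For both, bone replicate 2 was lowest, osteoblasts replicate 1 next, and the labels overlapped. The means of *Rara* were 12.1 ± 6.53 and 13.4 ± 4.40 FPKM in bone and osteoblasts (SD, n = 3, exact permutation p = 0.7), and those of *Rarg* 14.8 ± 7.17 and 17.2 ± 4.76 (SD, n = 3, exact permutation p = 0.6). The root mean square difference of their centred log2(FPKM + 1) was 0.11, against 0.18 for *Esr1* and *Rara* and 0.87 for *Nr3c1* and *Thra*, the pair farthest apart. This scale understates fold changes of low genes such as *Esr1*, which spanned 7.35-fold in FPKM against 3.47-fold for *Rara*. *Rara* was below *Rarg* in every library, at 0.682 to 0.884 of its FPKM. The log2 ratio was -0.32 ± 0.12 in bone and -0.38 ± 0.17 in osteoblasts (SD, n = 3), a difference of -0.07 that was within the spread (exact two-sided permutation p = 0.6). Its sign turned without bone replicate 3 (0.0024) or without osteoblasts replicate 1 (0.019). By coverage the ratio was lower, at 0.282 to 0.407. The genes most like *Rara* were *Mrpl37* (0.033), *Cnnm2* (0.040) and *Gm5619* (0.044), and those most like *Rarg* were *Psmb4* (0.031), *2310009B15Rik* (0.050) and *Cox6a1* (0.050). Each of these lay closer to its receptor than *Rara* and *Rarg* lay to each other, and likeness was not computed after scaling.

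*Vdr*, the steadiest receptor after scaling to the 75th percentile (though not to the sum of named genes, where *Rara* spanned 1.46-fold, *Rarg* 1.65-fold and *Vdr* 1.71-fold), and *Rara* and *Rarg*, the closest pair, are shown by the 250 bases before their RefSeq start sites (GRCm38.p6), 5′ to 3′ on the strand of the gene. Of the 9 genes, 6 had a promoter in the table used. *Vdr* is chr15:97908297-97908546 (minus strand), *Rara* is chr11:98937446-98937695 (plus strand, 1 of 4 starts) and *Rarg* is chr15:102257523-102257772 (minus strand, 1 of 2 starts). The *Vdr* and *Rara* stretches lie inside the features measured for these genes, and that of *Rarg* does not. Capitals mark 2 motifs searched on both strands, with overlapping matches counted. They are the GC box (GGGCGG or CCGCCC) that SP1 is known to bind and a half-site of some nuclear receptors (AGGTCA or TGACCT).
Vdr: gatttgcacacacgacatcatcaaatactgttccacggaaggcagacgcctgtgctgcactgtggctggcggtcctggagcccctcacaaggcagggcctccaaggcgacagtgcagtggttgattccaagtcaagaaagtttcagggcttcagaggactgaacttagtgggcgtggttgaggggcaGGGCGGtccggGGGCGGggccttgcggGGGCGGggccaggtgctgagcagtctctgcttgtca
Rara: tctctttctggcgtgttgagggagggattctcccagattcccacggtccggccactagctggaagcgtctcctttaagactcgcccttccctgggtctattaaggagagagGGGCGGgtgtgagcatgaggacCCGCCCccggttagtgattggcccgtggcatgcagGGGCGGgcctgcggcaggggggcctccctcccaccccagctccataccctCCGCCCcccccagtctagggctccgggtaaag
Rarg: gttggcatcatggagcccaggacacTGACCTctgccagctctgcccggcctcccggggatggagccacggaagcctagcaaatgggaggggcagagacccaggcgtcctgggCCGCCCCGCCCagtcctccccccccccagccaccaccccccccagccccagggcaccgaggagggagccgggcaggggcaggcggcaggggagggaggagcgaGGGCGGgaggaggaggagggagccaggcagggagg
The stretches are 61.2%, 65.2% and 74.4% G and C. *Vdr* holds 3 GC boxes and no half-site, *Rara* holds 4 and none, and *Rarg* holds 3, of which 2 overlap, and 1 half-site. *Thrb* also holds 3 GC boxes and 1 half-site, read at 1 of 2 starts. *Esr1*, also read at 1 of 2 starts, and *Esr2* hold neither motif there. Of 32851 promoters of this length, 32.7% hold a GC box and 14.0% a half-site. A match describes letters and not a site in use.

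No gene of retinoid supply and action passed the test between the labels. Of 13, 11 had a feature and 5 were tested, 1 with a positive and 4 with a negative difference (osteoblasts minus bone, median -0.89). *Cyp26b1*, which degrades retinoic acid and is a known target of its receptors, was at 27.5, 11.0 and 1.24 FPKM in bone and 19.4, 1.24 and 1.57 in osteoblasts. *Aldh1a2*, a retinoic acid synthase, was at 14.9, 1.95 and 1.27 FPKM in bone and 3.80, 0.718 and 1.02 in osteoblasts. *Crabp2*, which carries retinoic acid to its receptors in the cell, was at 4.83, 3.50 and 0 FPKM in bone and 1.33, 0 and 0.220 in osteoblasts. These 3 and *Rdh10*, 4 of the 5 tested, had their 3 lowest FPKM in the libraries with *Hbb-bt* above 1000, against 16.9% of all genes tested. After scaling to the 75th percentile the count was also 4, against 32.1%. *Rbp4*, a retinol carrier, did not, at 2.48 to 6.83 FPKM. *Rarb*, the beta receptor and a known target of the others, went the other way. It was at 0.244 to 0.312 FPKM where *Hbb-bt* was above 1000 and at 0.0555 to 0.138 where it was not. *Cyp26c1* of the same list did likewise, at 1.05 to 2.11 and 0 to 0.151 FPKM. For both, the lower values were under the depth floor, and both genes were too low to be tested. *Cyp26a1* was at 0 in 5 libraries.

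*Rxra*, the retinoid X receptor that pairs with VDR, RAR and the thyroid receptors, had the opposite arrangement to *Rara*. It was at 44.0, 24.8 and 15.5 FPKM in bone and 25.9, 12.9 and 13.1 in osteoblasts, with its 3 lowest values where *Hbb-bt* was above 1000. In those libraries it was at 0.774 to 0.859 of the *Rara* FPKM, and in the other 3 at 3.09 to 4.71. By coverage the ratio was 0.508 to 0.573 and 2.00 to 2.94. *Rxra* was at 1.36 to 1.98 times the *Vdr* FPKM in the libraries with *Hbb-bt* above 1000 and at 4.34 to 5.77 times in the others. By coverage it was at 0.179 to 0.278 and 0.522 to 0.733 times, so which of *Rxra* and *Vdr* is listed higher depends on the measure. Scaling a library leaves such a ratio as it is, and these pairs were chosen after their values were seen. Of 12 partners and coregulators 7 had a feature and 6 were tested, 4 with a positive and 2 with a negative difference (median 0.13), and limma called none. *Rxrg* did not exceed 0.914 FPKM. The corepressor *Ncor1* was at 14.8 to 29.3 FPKM, the coactivators *Ncoa2* and *Ncoa3* at 4.93 to 12.8 and 10.8 to 21.1, and the acetyltransferases *Crebbp* and *Ep300* at 9.99 to 23.4 and 7.48 to 20.0.

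*Thra*, the alpha receptor of thyroid hormone (Chr. 11, plus strand, 98740638 to 98769006, protein-coding), was at 13.2, 5.24 and 25.2 FPKM in bone and 8.94, 23.8 and 17.6 in osteoblasts. Its 3 highest values were those of the libraries with *Hbb-bt* above 1000, and the labels overlapped. The means were 14.5 ± 10.1 and 16.8 ± 7.45 FPKM in bone and osteoblasts (SD, n = 3, exact permutation p = 0.7). An unnamed feature at *Nr1d1* (minus strand, 98767925 to 98775333), a gene of the circadian clock whose 3′ end overlaps that of *Thra* by 1082 bp, was at 6.26, 3.12 and 7.66 FPKM in bone and 8.52, 7.09 and 6.47 in osteoblasts. Without strand, reads in the overlap cannot be told apart, and the order of the libraries differs between both features. The genes most like *Thra* were *Smg9* (0.070), *Gm10736* (0.075) and *Gm10039* (0.076).

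*Thrb*, the beta receptor (Chr. 14, plus strand, 17660261 to 18038090, protein-coding), was at 1.01, 0.947 and 1.58 FPKM in bone and 1.07, 0.427 and 1.04 in osteoblasts. Its highest and lowest values, bone replicate 3 and osteoblasts replicate 2, both come from libraries with *Hbb-bt* above 1000. The means were 1.18 ± 0.35 and 0.843 ± 0.36 FPKM in bone and osteoblasts (SD, n = 3, exact permutation p = 0.6). By coverage the difference on the log2 scale was 0.00033, as against -0.25 by FPKM. *Thra* exceeded *Thrb* in every library, by 13.0, 5.53 and 16.0 times in bone and 8.39, 55.6 and 17.0 times in osteoblasts. The log2 ratio was 3.39 ± 0.81 in bone and 4.32 ± 1.38 in osteoblasts (SD, n = 3), a difference of 0.93 that was within the spread (exact two-sided permutation p = 0.4). By coverage the ratio ran from 62.4 to 394.4. The gene most like *Thrb* was *Ddit4*, at 0.17, while *Thrb* itself had an SD of 0.27 over the 6 libraries on the same scale.

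Of 10 genes of thyroid hormone supply and action, 9 had a feature and 6 were tested, 3 with a positive and 3 with a negative difference (median -0.05), and limma called none. *Dio3*, the deiodinase that inactivates thyroid hormone, was at 8.07, 1.73 and 0.0410 FPKM in bone and 1.84, 0.0619 and 0.0412 in osteoblasts. Its values where *Hbb-bt* was above 1000 were all under the depth floor. *Dio2*, the deiodinase that activates the hormone, was at 0.188, 0.0235 and 0.791 FPKM in bone and 0.0126, 1.11 and 0.732 in osteoblasts. Its 3 highest values were in those same libraries, the reverse of *Dio3*. *Dio2* was too low to be tested, and its values in bone replicate 2 and osteoblasts replicate 1 were under the depth floor. *Slc16a10*, a carrier of thyroid hormone and aromatic amino acids, was at 8.95, 6.47 and 32.4 FPKM in bone and 5.35, 35.8 and 31.9 in osteoblasts. Of the 6 tested, 2 had their 3 highest FPKM where *Hbb-bt* was above 1000 and 2 their 3 lowest, against 38.4% and 16.9% of all genes tested. After scaling to the 75th percentile the counts were the same, against 37.1% and 32.1%. *Dio1*, another deiodinase, was at 0 in all 6.

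*Esr1*, the alpha receptor of estrogen (Chr. 10, plus strand, 4611593 to 5005614, protein-coding), was at 1.82, 0.492 and 2.74 FPKM in bone and 1.13, 2.74 and 3.62 in osteoblasts. The 3 libraries with *Hbb-bt* above 1000 were highest, and bone replicate 2 was lowest. The means were 1.69 ± 1.13 and 2.50 ± 1.26 FPKM in bone and osteoblasts (SD, n = 3, exact permutation p = 0.6). Its highest value was 7.35 times its lowest, the widest span of the 7 receptors, and 4.01 times after scaling to the 75th percentile, where *Thrb* spanned 4.03-fold. Over all genes tested the median span was 3.52-fold in FPKM and 2.70-fold after scaling, and over the 7 receptors it was 3.47 and 2.48. The genes most like *Esr1* were *Napa* (0.025), *Mrpl22* (0.050) and *Hdac10* (0.053), on the log2(FPKM + 1) scale, which understates fold changes of low genes such as *Esr1*.

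*Esr2*, the beta receptor of estrogen (Chr. 12, minus strand, 76120419 to 76177259, protein-coding), was at 0.0449, 0.0594 and 0.0357 FPKM in bone and 0, 0 and 0.0173 in osteoblasts. These values did not overlap between the labels (exact permutation p = 0.1, n = 3), but all 6 are under the floor of 3 read pairs on 1 kb, so no difference was detectable at this depth. Of 9 genes of estrogen supply and action 8 had a feature and 2 were tested, both with a negative difference (median -0.41), and limma called neither. *Cyp19a1*, the aromatase that makes estrogen, and *Sult1e1*, which sulfates it, were at 0 in all 6. *Pgr*, the progesterone receptor and a known estrogen target, did not exceed 0.0878 FPKM. *Greb1*, another known target, was at 0.324 to 0.525 FPKM where *Hbb-bt* was low and at 0 to 0.0105 where it was above 1000, the reverse of *Esr1*. The values where *Hbb-bt* was above 1000 were under the depth floor, and *Greb1* was too low to be tested. *Hsd17b1* of the same list was at 0.660 to 0.807 FPKM where *Hbb-bt* was above 1000 and at 0 to 0.441 where it was not, and was also too low to be tested. *Hsd17b12* and *Hsd17b4*, enzymes of steroid and fatty acid metabolism, were at 5.32 to 29.1 and 9.30 to 32.8 FPKM, each with its 3 lowest values where *Hbb-bt* was above 1000. Over all genes tested 16.9% had that arrangement in FPKM. The share was 32.1% after scaling to the 75th percentile, where both genes kept it, and 48.6% after scaling to the sum of named genes.

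*Nr3c1*, the glucocorticoid receptor (Chr. 18, minus strand, 39410545 to 39491301, protein-coding), was at 16.3, 8.18 and 8.50 FPKM in bone and 8.23, 6.03 and 11.2 in osteoblasts. Bone replicate 1 was highest and osteoblasts replicate 2 lowest, and the labels overlapped. The means were 11.0 ± 4.60 and 8.47 ± 2.58 FPKM in bone and osteoblasts (SD, n = 3, exact permutation p = 0.5). It was at 0.695 to 1.17 times the *Vdr* FPKM in the libraries with *Hbb-bt* above 1000 and at 1.38 to 1.90 times in the other 3, a pair also chosen after seeing its values. The genes most like *Nr3c1* were *Golph3l* (0.10), *Zfp655* (0.11) and *Braf* (0.11), less close than those of the other receptors but *Thrb*. Of the related receptors, the mineralocorticoid receptor *Nr3c2* was at 0.186 to 1.60 FPKM. Of these 8 genes all had a feature and 3 were tested, 1 with a positive and 2 with a negative difference (median -0.17), and limma called none.

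None of the glucocorticoid pathway genes tested passed between the labels. Of 13 genes of the list 12 had a feature and 11 were tested, 4 with a positive and 7 with a negative difference (median -0.05). *Fkbp5*, a chaperone of the receptor and a sensitive target of it, was at 76.5, 38.8 and 7.72 FPKM in bone and 49.7, 9.22 and 9.59 in osteoblasts. *Tsc22d3* (GILZ), another target, was at 105.8, 89.4 and 23.3 FPKM in bone and 82.2, 25.9 and 39.4 in osteoblasts. For both, the 3 lowest values were in the libraries with *Hbb-bt* above 1000. *Hsd11b1*, which regenerates active glucocorticoid, had the reverse arrangement, at 3.83, 1.04 and 13.7 FPKM in bone and 3.33, 14.3 and 15.5 in osteoblasts, as had the chaperone *Fkbp4*, at 22.2, 10.8 and 37.3 in bone and 15.4, 40.6 and 36.1 in osteoblasts. Of the 11 tested, 5 had their 3 lowest FPKM in those libraries and 2 their 3 highest, against 16.9% and 38.4% of all genes tested. After scaling to the 75th percentile 8 had their 3 lowest there and 2 their 3 highest, against 32.1% and 37.1% of all genes.

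**Figure D5:**
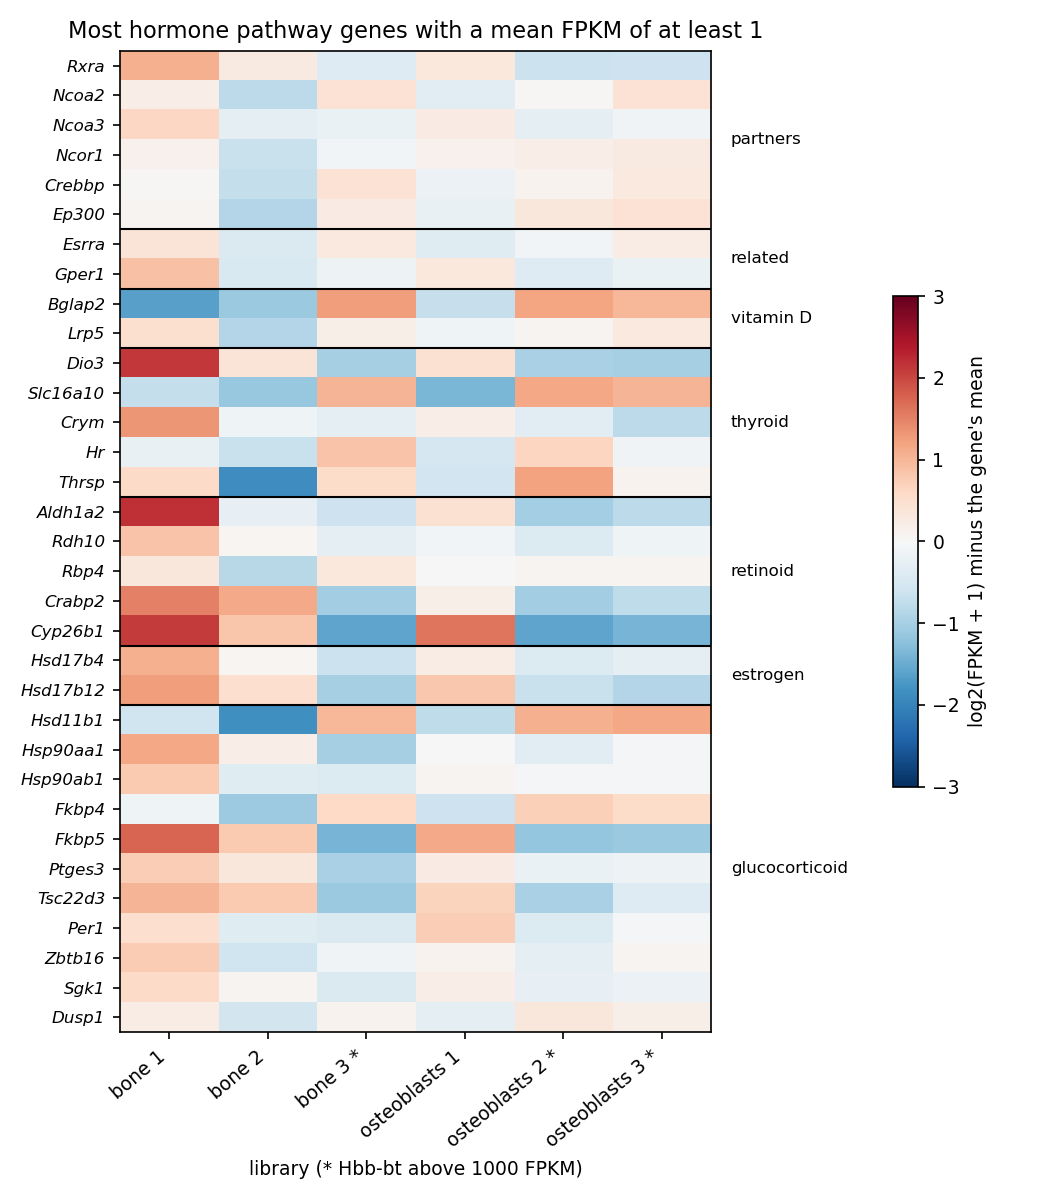
Most of the hormone pathway genes that were tested, as log2(FPKM + 1) minus the mean of the gene over the 6 libraries (colour, red above and blue below), with libraries along the horizontal axis, * for *Hbb-bt* above 1000 FPKM, and lines between the lists. *Fkbp5*, *Tsc22d3*, *Cyp26b1* and *Dio3* are above their means in the 3 libraries without *, and *Hsd11b1*, *Slc16a10* and *Bglap2* are below theirs there.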

How the data were processed

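RNA of 3 libraries labelled bone and 3 labelled osteoblasts was sequenced by the authors from TruSeq RNA v2 libraries as 75 bp paired-end reads. The authors aligned them to GRCm38 with HISAT2 2.0.5 and used StringTie 1.3.3 and, per the submitters' processing notes, SAMtools 1.7. The authors deposited the FPKM, TPM and mean coverage of each feature, and no counts. FPKM is scaled to all aligned reads, including those on unnamed features, and the share of reads on these features was not counted. Rows were matched by name and summed. Genes with a mean of at least 1 FPKM were tested on log2(FPKM + 1) with limma 3.58.1 in R 4.3.3 (lmFit, eBayes with a trend, Benjamini-Hochberg over 12112 genes, threshold 0.05), which was tested on simulated data. Single genes and ratios had exact permutation tests. Fold changes on this scale understate the change of low genes. Depth was read from the ratio of coverage to FPKM, and the floors cover counting error only.

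The 9 genes and the pathway lists were chosen with earlier results of these data known. Named are the 9, the pathway lists, genes that overlap them, marker genes, and for each receptor the 3 genes (mean of at least 5 FPKM) closest to it on centred log2(FPKM + 1). Groups came from the labels. Both labels use replicate numbers 1 to 3, and nothing in the labels pairs them. The alternatives were a pseudocount of 0.1, other filters, TPM, limma without a trend, scaling to the sum of named genes or to the 75th percentile, quantile normalization, a replicate block, and leaving out each library. Leaving out 2 libraries together and coverage in place of FPKM were added after seeing the data. Sequences came from RefSeq on GRCm38.p6. Genes without a named feature were not analysed here, and the values of a few listed genes are not reported here.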

Additional observations from a re-analysis of the deposited data

How the results depend on the processing

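None of the 7 receptors tested passed the threshold under any alternative fitted with limma, with a lowest adjusted p of 0.687 (Benjamini-Hochberg). Coverage in place of FPKM was not fitted with limma. Over all genes tested, the replicate block called 46 genes higher and 3 lower in osteoblasts against 0 and 0 without it. Leaving out each library in turn gave 0 to 262 higher and 0 to 38 lower. Leaving out both libraries rich in unnamed features called 0, with 118 genes at an unadjusted p under 0.05. The labels do not say that a replicate number marks a mouse. Deviations of same-numbered libraries correlated at 0.84, -0.75 and 0.83, and those of unlike numbers reached 0.80 (bone replicate 2 and osteoblasts replicate 1) and 0.83 (bone replicate 3 and osteoblasts replicate 2), so the numbers were not taken as pairs. By a sign-flip test over those numbers, whose exact p cannot go below 0.25, the *Rara* to *Rarg* ratio gave p = 0.25, lower in osteoblasts in 3 of 3, and the *Thra* to *Thrb* ratio p = 0.75. The block changed no call of a receptor.

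Without bone replicate 2, which was lowest for these genes, the differences turned to -0.069 for *Vdr*, -0.21 for *Thra*, -0.23 for *Rara* and -0.15 for *Rarg*. Coverage in place of FPKM turned *Thrb* to 0.00033. The log2 ratio of *Rara* to *Rarg* turned to 0.0024 without bone replicate 3 and to 0.019 without osteoblasts replicate 1. The cause was not tested. Over the libraries left out, *Esr1* ran from 0.034 to 0.73, *Nr3c1* from -0.51 to -0.016, *Thrb* from -0.34 to -0.075, *Vdr* from -0.069 to 0.39, *Thra* from -0.21 to 0.82, *Rara* from -0.23 to 0.58 and *Rarg* from -0.15 to 0.59. The log2 ratio of *Rara* to *Rarg* ran from -0.16 to 0.019 and that of *Thra* to *Thrb* from 0.19 to 1.55. The other alternatives kept the direction of every receptor's difference. With no counts, no interval can be given for a single FPKM, and 3 libraries a label limit every test.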
